A study of Drosophila melanogaster with 6 samples.

Results

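The Eig71E genes, grouped here as late puff genes, form a cluster on chromosome arm 3L of Drosophila melanogaster. The 10 genes named Eig71Ea to Eig71Ej were taken by symbol from a table of 16662 rows of gene expression values, and each had a row of its own. Only Eig71Ee and Eig71Eg, 2 of the 10 genes, reached the mean of at least 1 FPKM (a fragment count corrected for transcript length and library size) required for a test, a filter that 10986 rows passed.

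Values came from RNA-seq of whole larvae of the last larval instar, with 2 libraries for each of 3 genotypes. The age of the larvae within this instar is not given, so whether the genotypes were matched in stage is not known. The part of stage in the levels below was not tested. HP1b16 and HP1b86 larvae were homozygous for deletion alleles of HP1b, a heterochromatin protein 1 gene on the X chromosome, and yw larvae were the control strain. Both alleles arose by imprecise excision of a P element, each represents a single excision event, HP1b86 carries the longer deletion, and both stocks were backcrossed into yw, so that all 3 genotypes share the y- w- background. Whether both samples of a genotype were collected and extracted separately is stated nowhere, so that the p-values below describe how far these libraries scatter, which may be technical scatter alone.

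At the end of larval life a pulse of the steroid hormone ecdysone induces a few early regulators in the salivary gland, such as Broad and E74, and these in turn switch on late puff genes. Most of the Eig71E genes are such late genes and encode small secreted cysteine-rich proteins that resemble defence peptides. Eig71Ee encodes a larger mucin-like protein that is made by the salivary gland and other tissues and that is also found in the hemolymph clot. The timing of Eig71Ee need not match that of the small genes, so its level is not a measure of theirs.

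HP1b itself had 2.55 and 3.13 FPKM in HP1b16 and 0.121 and 0.0403 FPKM in HP1b86, against 22.8 and 24.2 FPKM in yw. Both mutants lay below yw, as the labels imply, while the labels imply no order between the alleles. According to the paper, the HP1b16 stock makes an aberrant transcript from this gene. The HP1b86 libraries differed from each other more than the others did. Over the tested rows the SD between the libraries of a genotype was 0.75 on the log2 scale in HP1b86 and 0.32 in HP1b16, against 0.29 in yw, and the share of rows that differed by more than 2-fold between the libraries was 23.6% in HP1b86 and 1.85% in HP1b16, against 1.82% in yw. The HP1b16 libraries summed to 768500 and 778700 FPKM over all rows and the HP1b86 libraries to 1132000 and 874600 FPKM, against 657900 and 654400 in yw. Read totals are not in the table, but the steps between its low values give depths relative to yw replicate 1 of 81.3% and 131% in HP1b16 and 41.9% and 62.7% in HP1b86, against 78.6% in yw replicate 2, if no further scaling was applied. The range of reads collected per sample that the paper gives is narrower than the range of these depths, and this was not resolved. In whole larvae, fewer cells of a type and less RNA per cell cannot be told apart.

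The cluster was carried almost entirely by Eig71Ee. Its mean over the 6 libraries was 2174 FPKM, against 14.1 FPKM for Eig71Eg, 0.932 FPKM for Eig71Ea, 0.653 FPKM for Eig71Eb and 0.204 FPKM for Eig71Ed. Below these came Eig71Ec with a mean of 0.0575 FPKM, Eig71Ej with 0.0424 FPKM and Eig71Ef with 0.0247 FPKM, and Eig71Eh and Eig71Ei were listed at 0 in every library. Eig71Ee was above Eig71Eg, and Eig71Eg above every other gene of the cluster, in each of the 6 libraries. The ranges of the other genes overlapped with those of their neighbours in this order. FPKM are scaled by transcript length, so these levels can be set side by side.

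Summed over the 10 genes, the cluster had 1831 and 1642 FPKM in HP1b16 and 1122 and 1610 FPKM in HP1b86, against 3454 and 3480 FPKM in yw. Eig71Ee made up 98.6% to 99.8% of this sum. Without Eig71Ee and Eig71Eg, the remaining 8 genes summed to 2.42 and 1.70 FPKM in HP1b16 larvae and 0.976 and 1.44 FPKM in HP1b86 larvae, against 3.02 and 1.93 FPKM in yw. HP1b16 overlapped with yw here, and HP1b86 lay below both.

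**Figure D1:**
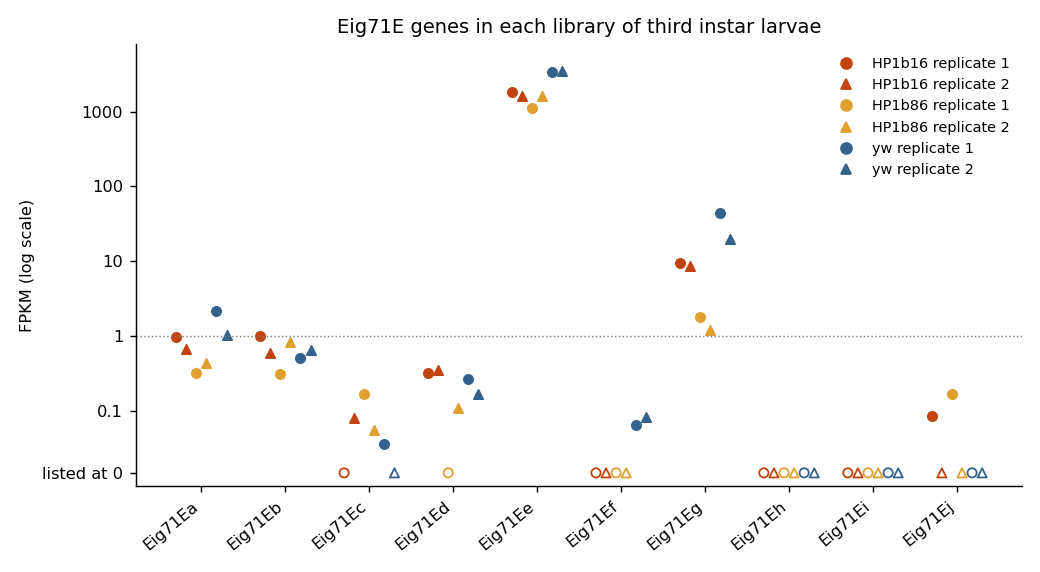
FPKM of the 10 Eig71E genes on a log axis, with 1 point per library (circles for replicate 1, triangles for replicate 2), HP1b16 and HP1b86 left of yw, open symbols for values listed at 0 and a dotted line at 1 FPKM. Eig71Ee lies between 1119 and 3459 FPKM and Eig71Eg between 1.2 and 43.8 FPKM, while the highest value of any other gene is 2.14 FPKM, for Eig71Ea in yw replicate 1.

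Eig71Ee had 1819 and 1632 FPKM in HP1b16 and 1119 and 1607 FPKM in HP1b86, against 3407 and 3459 FPKM in yw. All 4 mutant libraries lay below both yw libraries, and HP1b86 replicate 2 was close to HP1b16 replicate 2. In order of abundance, Eig71Ee took rank 62 and 86 among all rows in HP1b16 and rank 188 and 91 in HP1b86, against rank 20 in both yw libraries. The means were 1725 ± 132 FPKM in HP1b16 and 1363 ± 345 FPKM in HP1b86, against 3433 ± 36.7 FPKM in yw (SD, n = 2 each), so that the HP1b16 mean was 0.503 and the HP1b86 mean 0.397 of that in yw.

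**Figure D2:**
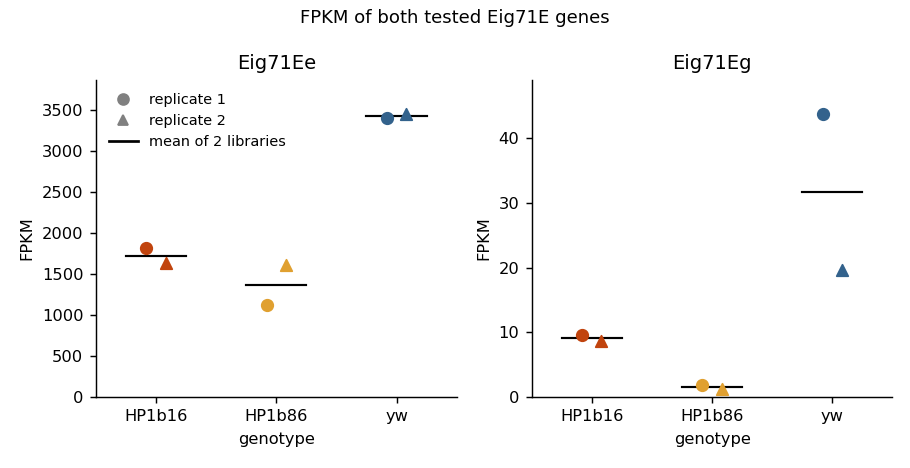
FPKM (linear axes from 0) of Eig71Ee on the left and Eig71Eg on the right by genotype, with 1 symbol per library and a line at the mean of 2 libraries. For both genes all 4 mutant libraries lie below both yw libraries, and the yw libraries are close together for Eig71Ee (3407 and 3459 FPKM) but not for Eig71Eg (43.8 and 19.7 FPKM).

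Despite this separation, Eig71Ee did not pass the test in any comparison. Here and below, log2 fold changes are of FPKM + 1, and p-values are from limma, adjusted by the Benjamini-Hochberg method over the 10986 tested rows, with a threshold of 0.05. The log2 fold change of Eig71Ee was -0.99 in HP1b16 against yw (SE 0.25, limma adjusted p = 0.121, 95% confidence interval -1.66 to -0.33). In HP1b86 against yw it was -1.36 (SE 0.25, limma adjusted p = 0.0599, interval -2.02 to -0.69), and for the mean of both mutants against yw it was -1.17 (SE 0.22, limma adjusted p = 0.0515, interval -1.75 to -0.60). These comparisons share the yw libraries and are not independent of each other. The call depended on the setting, also with all libraries kept, as the last section shows. It changed as well when single libraries of HP1b86 were left out. In HP1b16 the log2 fold change then stayed at -0.99, while the SE fell from 0.25 to 0.15 or 0.16. Where 1 library of a genotype is left out, the remaining library is assumed to vary like those of the other genotypes, which alone give the spread. Without HP1b86 replicate 1, Eig71Ee passed in HP1b16 (limma adjusted p = 0.0211) and in the mean of both mutants (log2 fold change -1.04, limma adjusted p = 0.0196). Without HP1b86 replicate 2, it passed in HP1b16 (limma adjusted p = 0.0215), in HP1b86 (-1.62, limma adjusted p = 0.00975) and for both mutants averaged (-1.31, limma adjusted p = 0.00673). Over all settings tried, the limma adjusted p of Eig71Ee ran from 0.0208 to 0.590 in HP1b16, from 0.00975 to 0.323 in HP1b86 and from 0.00673 to 0.349 with both averaged, and the log2 fold change was below 0 throughout.

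Eig71Eg, which encodes one of the small secreted proteins, fell in HP1b86. It had 9.51 and 8.68 FPKM in HP1b16 and 1.79 and 1.2 FPKM in HP1b86, against 43.8 and 19.7 FPKM in yw. Neither mutant overlapped with yw, and the HP1b86 libraries lay below both HP1b16 libraries. The spread was widest in yw, where replicate 1 was 2.23-fold above replicate 2. The means were 9.10 ± 0.588 FPKM in HP1b16 and 1.5 ± 0.413 FPKM in HP1b86, against 31.8 ± 17.1 FPKM in yw (SD, n = 2 each), so that yw was 3.49-fold above HP1b16 and 21.2-fold above HP1b86.

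In HP1b86 against yw the log2 fold change of Eig71Eg was -3.62 (SE 0.40, limma adjusted p = 0.0410, interval -4.68 to -2.56). For the mean of both mutants against yw it was -2.61 (SE 0.35, limma adjusted p = 0.0360, interval -3.52 to -1.69), and this also passed. In HP1b16 against yw the value was -1.59 (SE 0.40, limma adjusted p = 0.12, interval -2.65 to -0.53), which did not pass. In HP1b86 the call was lost without HP1b16 replicate 1 (limma adjusted p = 0.115), without HP1b16 replicate 2 (0.114), without yw replicate 1 (log2 fold change -3.06, 0.308) and without yw replicate 2 (-4.18, 0.21). In the mean of both mutants it was lost without the same libraries. These losses were not particular to Eig71Eg, since in both comparisons they extended to every call of the table, as the last section shows. Without HP1b86 replicate 1 or 2, Eig71Eg passed in HP1b16 as well (limma adjusted p = 0.0495 and 0.0485). Over all settings tried the limma adjusted p ran from 0.0113 to 0.308 in HP1b86, from 0.00983 to 0.324 in the mean of both mutants and from 0.0485 to 0.576 in HP1b16, with the log2 fold change below 0 in each.

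Of the 2 tested genes of the cluster, 0 passed in HP1b16, 1 in HP1b86 and 1 for both mutants averaged, each call being lower than yw. Among all tested rows, 0.0091% were called lower in HP1b16 (0.0182% in either direction), 1.06% in HP1b86 and 1.7% for both mutants averaged. Both tested genes had an unadjusted p from limma under 0.05 and a lower level in each of these comparisons, as did 8.8% of the tested rows in HP1b16 and 12.7% in each of the other comparisons. All 4 mutant libraries lay below both yw libraries for both genes, and for 19.8% of the tested rows. Over the 8 genes of the cluster with a value above 0 in some library, 6 of them with a mean below 1 FPKM, the median log2 fold change was -0.04 in HP1b16, -0.16 in HP1b86 and -0.07 with both mutants averaged. Over all tested rows the medians were -0.10, -0.0048 and -0.08 in the same order. For low genes this median depends on the pseudocount, and with 0.1 in place of 1 it was -0.29 in HP1b16, -0.96 in HP1b86 and -0.55 with both mutants averaged, beside -0.12, -0.024 and -0.09 over all tested rows.

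**Figure D3:**
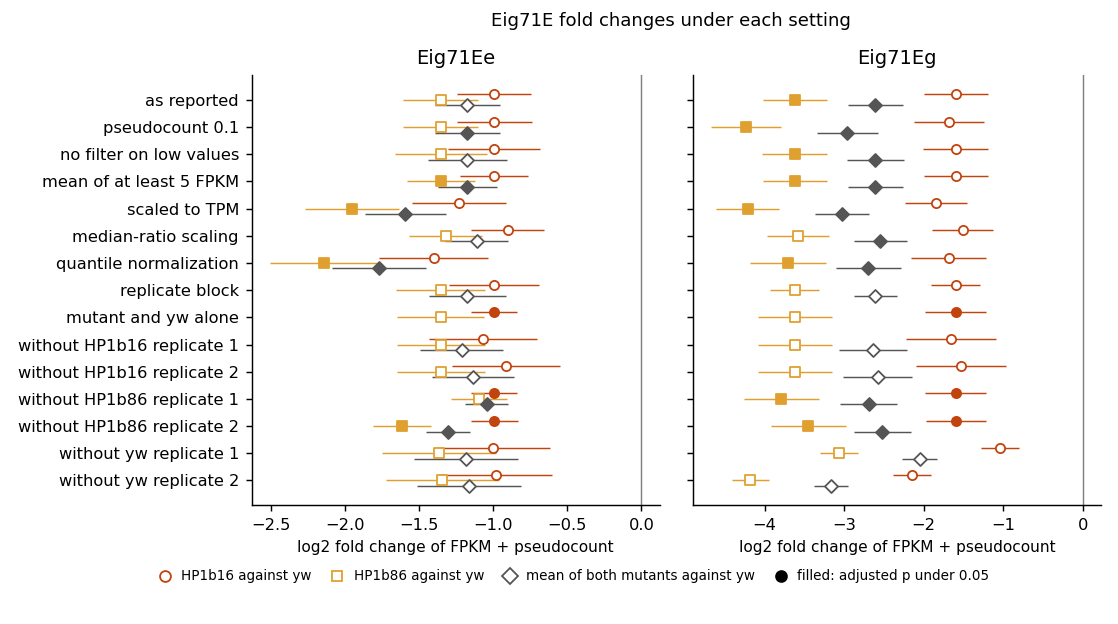
Log2 fold changes of FPKM + pseudocount against yw (horizontal axes) for Eig71Ee on the left and Eig71Eg on the right under each processing setting (rows), with bars for 1 SE and filled symbols where the limma adjusted p was under 0.05. Every value lies below 0, from -2.14 to -0.90 for Eig71Ee and from -4.23 to -1.04 for Eig71Eg, while the calls come and go with the setting.

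The alleles were also compared with each other. Eig71Ee had a log2 difference of 0.36 for HP1b16 over HP1b86 (SE 0.25, limma adjusted p = 0.805), with an interval of -0.30 to 1.02 that leaves room for a difference of about the size of 1 log2 unit. Eig71Eg had a difference of 2.03 (SE 0.40, interval 0.97 to 3.08), and the ratio of the mean FPKM, without a pseudocount, was 6.08. Its unadjusted p from limma was 0.00499, but the adjusted p was 0.526, and 0.0091% of all tested rows were called in this comparison. Without HP1b86 replicate 1, when HP1b86 is 1 library and the other genotypes give the spread, the difference passed (2.19, limma adjusted p = 0.0409), and over all settings its limma adjusted p ran from 0.0409 to 0.992. The ratio of Eig71Ee to Eig71Eg was 191 and 188 in HP1b16 and 626 and 1335 in HP1b86, against 77.8 and 176 in yw. The 3 genotypes did not overlap in this ratio, although the gap between HP1b16 and yw replicate 2 was small.

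The low FPKM values fall on steps that correspond to single fragments, which gives an approximate number of fragments behind each small gene. For Eig71Eg this was about 116 and 171 fragments in HP1b16 and 11 in each HP1b86 library, against 659 and 233 in yw. The 95% Poisson interval of 11 fragments is 5.49 to 19.7. Fragments were read without molecular identifiers, and such intervals cover counting error only.

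Eig71Ea encodes another small secreted protein and stands beside Eig71Eb on the opposite strand. It had 0.988 and 0.671 FPKM in HP1b16 and 0.326 and 0.440 FPKM in HP1b86, against 2.14 and 1.03 FPKM in yw. All 4 mutant libraries lay below both yw libraries, but HP1b16 replicate 1 was close to yw replicate 2. The underlying numbers were about 12 and 13 fragments in HP1b16 and 2 and 4 in HP1b86, against 32 and 12 in yw. When the filter on low values was left out, the log2 fold change of Eig71Ea was -0.47 in HP1b16 (limma adjusted p = 0.386), -0.87 in HP1b86 (limma adjusted p = 0.118) and -0.67 in the mean of both mutants (limma adjusted p = 0.138), and none passed.

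The order seen for Eig71Eg and Eig71Ea was absent from Eig71Eb, whose values were 1.02 and 0.589 FPKM in HP1b16 and 0.310 and 0.835 FPKM in HP1b86, against 0.510 and 0.652 FPKM in yw. HP1b16 overlapped with yw, and the HP1b86 libraries lay on both sides of yw. Eig71Ed had 0.326 and 0.357 FPKM in HP1b16 and 0 and 0.109 FPKM in HP1b86, against 0.265 and 0.169 FPKM in yw, where the whole range corresponds to 0 to 7 fragments. Here HP1b16 lay above yw and HP1b86 below it. At such numbers no difference was detectable.

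The last genes of the cluster were at the limit of detection. Eig71Ec ranged from 0 to 0.170 FPKM and was above 0 in 4 of the 6 libraries, and Eig71Ej had 1 fragment in each of HP1b16 replicate 1 and HP1b86 replicate 1 and was at 0 elsewhere. Eig71Ef was listed at 0 in all 4 mutant libraries and had 1 fragment in each yw library, and a count of 0 allows, as a one-sided limit, up to 3 fragments, or 0.150 to 0.469 FPKM depending on the library. Eig71Eh and Eig71Ei were listed at 0 in all 6 libraries, where the same limit comes to 0.142 to 0.444 FPKM for Eig71Eh and 0.119 to 0.371 FPKM for Eig71Ei. These limits hold only if the 0 is a count, since a value listed at 0 in this table can also be a failed estimate. Eig71Ek, the next gene of the naming series and not counted among the 10, was also listed at 0 throughout.

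The reference annotation is of a later genome release than the dm3 build of the files. It was used for order and strand, and for the transcript lengths and isoform counts behind the numbers of fragments. In it the 10 genes and 7 others lie from comm3 to CG7304 within 20 kb of the outermost Eig71E genes. The Eig71E genes stand on both strands, 4 on the plus and 6 on the minus strand, and Eig71Eg is separated from Eig71Ee by Eig71Ef alone. Position in the row did not sort the genes by level, since the most abundant gene, Eig71Ee, lies directly between Eig71Ed and Eig71Ef, which had at most 0.357 and 0.0830 FPKM. The neighbours that could be tested did not pass. CG43084, which lies between Eig71Eb and Eig71Ec, had 31.3 and 52.7 FPKM in HP1b16 and 86.4 and 16.4 FPKM in HP1b86, against 18.0 and 20.1 FPKM in yw. The HP1b86 libraries lay on both sides of yw, and the log2 fold change in the mean of both mutants was 1.01 (limma adjusted p = 0.418). For comm3 it was -0.39 (limma adjusted p = 0.388), and for CG43083, which adjoins Eig71Ea, it was 0.10 (limma adjusted p = 0.812).

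The ecdysone cascade stands upstream of the late genes. A list of 13 of its genes, called regulators here, also holds the transporter gene E23, and 4 of the rows are shared with other genes. Whether each of the 13 acts before the late genes was not examined. All 13 were tested, and with both mutants averaged 4 fell and 1 rose, while 4 fell in HP1b86 and 0 passed in HP1b16. Over all tested rows, 1.7% were called lower and 4.68% higher with both averaged, and 1.06% were called lower in HP1b86. The median log2 fold change of the 13 was -0.83 in HP1b16, -1.42 in HP1b86 and -1.13 with both mutants averaged, beside the medians of all tested rows given above. All 4 mutant libraries lay below both yw libraries for 8 of the 13 genes and above them for 2, as for 19.8% and 24.4% of the tested rows. Those 2 were usp and ftz-f1, whose rows are shared with Actn and CR45939. The row of Kr-h1 is shared with CG45075.

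The zinc finger gene br, whose Broad proteins are required for late puff transcription, had 102 and 74.6 FPKM in HP1b16 and 41.6 and 63.7 FPKM in HP1b86, against 188 and 233 FPKM in yw. Every mutant library lay below both yw libraries, and the mutants did not overlap with each other. The log2 fold change was -1.63 in the mean of both mutants (SE 0.25, limma adjusted p = 0.0413). E23, an ABC transporter gene of the early response, had -1.5 (limma adjusted p = 0.0359), and Eip75B, the gene of the nuclear receptor E75, had -1.39 (limma adjusted p = 0.0350). Hr39, a nuclear receptor gene named after its values were seen, had -0.97 (limma adjusted p = 0.0415). The gene that rose was usp, the partner of the ecdysone receptor, at 1.05 (limma adjusted p = 0.0448), and its row is shared with Actn, so the value cannot be assigned to usp alone. The receptor gene EcR had -0.46 (limma adjusted p = 0.337). The Ets-domain gene Eip74EF, whose E74 proteins also act on late genes, had -0.99 (limma adjusted p = 0.136).

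The difference between the yw libraries in Eig71Eg was also seen in some regulators. Replicate 1 was 2.21-fold above replicate 2 for Eip78C, 2.75-fold for Hr46 and 2.48-fold for Hr4, which are nuclear receptor genes named after their values were seen (the row of Hr46 is shared with CG12912), and 2.09-fold for Eig71Ea. Eig71Ee, br and Eip75B did not share it, with ratios of 0.985, 0.808 and 0.944. Whether this difference has a part in the result for Eig71Eg was not tested beyond leaving out each yw library, which is given above. Between the HP1b16 libraries, the same ratios of Eip78C, Hr46 and Hr4 were 3.185, 2.06 and 2.15, against 1.10 for Eig71Eg. Between the HP1b86 libraries they were 1.59, 0.649 and 1.88, against 1.49 for Eig71Eg.

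**Figure D4:**
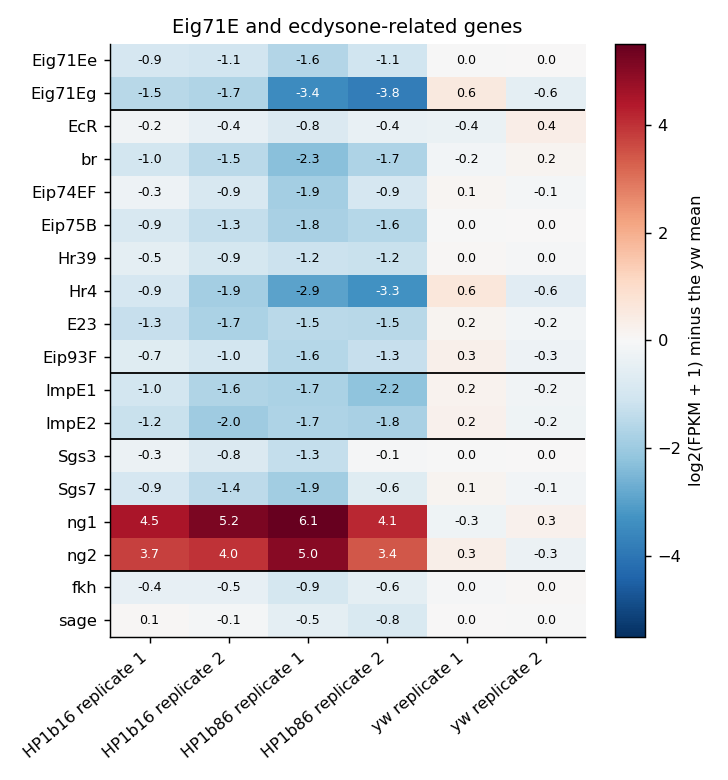
Differences in log2(FPKM + 1) from the mean of the yw libraries (color and number) for Eig71Ee and Eig71Eg (top block), regulators of the ecdysone response, ImpE genes, glue genes and salivary gland factors (blocks below, in this order) in each library, with the mutant libraries left of yw. Eig71Eg and Hr4 are lowest in the HP1b86 libraries and differ between the yw libraries, while ng1 and ng2 are higher in every mutant library than in yw. The genes shown were picked and do not stand for their full lists. Not shown are usp and ftz-f1 (1.05 and 0.84 with both mutants averaged), and Eip78C, Hr46 and Kr-h1, which were below 0. The gland markers sens, CrebA, PH4alphaSG1 and PH4alphaSG2 (0.07 to 0.77) and eyg (-0.35) are also left out. The list that holds the ImpE genes had a median of 0.20.

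Glue genes encode the secreted salivary proteins that fix the pupal case to its support, and the Sgs genes are expressed in the gland before the late puff genes. Of 10 glue genes, 9 could be tested, and with both mutants averaged 0 fell and 2 rose, where 1.7% of all tested rows were called lower and 4.68% higher. Those that rose were ng1, with 35.0 and 56.2 FPKM in HP1b16 and 110 and 27.0 FPKM in HP1b86, against 0.330 and 0.90 FPKM in yw (log2 fold change 4.98, limma adjusted p = 0.0359), and ng2 (4.04, limma adjusted p = 0.0350). Both belong to the new-glue genes, another family of salivary gland genes. Sgs3 had 3983 and 2884 FPKM in HP1b16 and 1993 and 4693 FPKM in HP1b86, against 4833 and 5119 FPKM in yw (-0.63, limma adjusted p = 0.395). Sgs7, the most abundant of them, had -1.23 (limma adjusted p = 0.189). The median of the 9 genes was -0.63 in the mean of both mutants. For 4 of the 9, namely Sgs3, Sgs5, Sgs7 and Sgs8, all 4 mutant libraries lay below both yw libraries, as for 19.8% of the tested rows. For 3, namely ng1, ng2 and ng3, they lay above, as for 24.4% of the tested rows.

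Eig71Ee is expressed in the same gland as the Sgs genes, but also in other tissues. Its level was set against theirs in each library, which does not correct for gland content. Eig71Ee was 7.55% and 9.59% of Sgs7 in HP1b16 and 9.30% and 5.49% of it in HP1b86, against 6.79% and 8.27% in yw. The mutants lay on both sides of yw in this ratio. Relative to Sgs3 it was 45.7% and 56.6% in HP1b16 and 56.1% and 34.2% in HP1b86, against 70.5% and 67.6% in yw, and here all mutant libraries were lower. Of the 6 Sgs genes, the mutants lay below yw for Eig71Ee with 3 and for Eig71Eg with 5, Sgs7 being the exception for Eig71Eg. The 6 ratios of a gene share its own level and are not independent, and no such count was made over all rows. The Sgs genes were 0.411 to 0.521 times as high in HP1b86 replicate 1 as in replicate 2, and Eig71Ee 0.696 times, whereas Eig71Eg was 1.49 times as high.

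**Figure D5:**
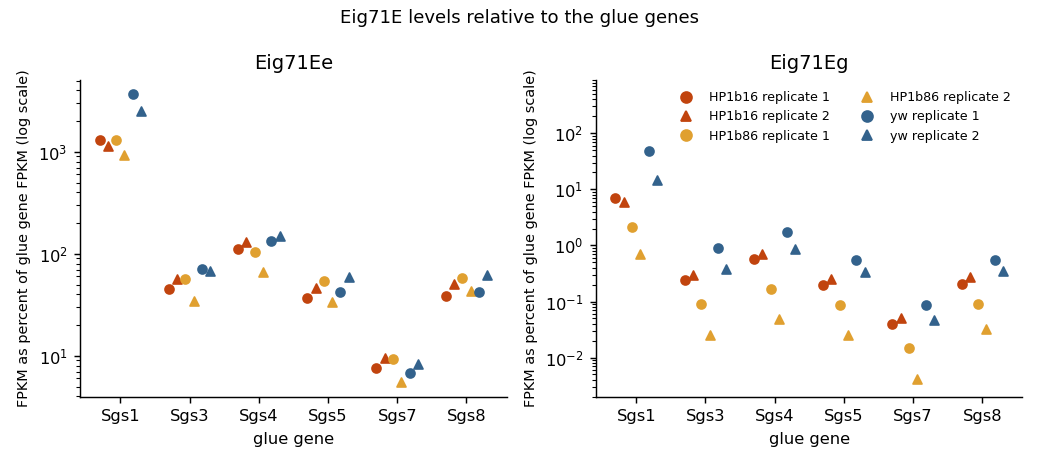
FPKM of Eig71Ee (left) and Eig71Eg (right) as a percent of the FPKM of each Sgs gene in the same library, on log axes, with circles for replicate 1 and triangles for replicate 2 and the mutants left of yw. Eig71Ee overlaps between mutants and yw for Sgs5, Sgs7 and Sgs8, and Eig71Eg overlaps for Sgs7 alone, where HP1b16 replicate 2 (0.0511%) lies above yw replicate 2 (0.0471%).

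Markers of the salivary gland itself were checked beside these values. Of 7 genes, 0 passed in any comparison, where 1.7% of all tested rows were called lower and 4.68% higher with both mutants averaged. With shares this low, 0 of 7 does not show that the gland genes were unchanged. All 4 mutant libraries lay below both yw libraries for 2 of the 7, fkh and eyg, and above them for 0, as for 19.8% and 24.4% of the tested rows. The summed level of the 7 was 86.6 and 84.3 FPKM in HP1b16 and 65.2 and 52.2 FPKM in HP1b86, against 68.9 and 75.7 FPKM in yw. HP1b16 lay above yw in this sum and HP1b86 below it, and the median log2 fold change of the 7 was 0.07 with both mutants averaged. The factor gene fkh, which controls gland identity and glue genes, had 12.2 and 11.9 FPKM in HP1b16 and 8.20 and 11.1 FPKM in HP1b86, against 16.2 and 17.3 FPKM in yw (log2 fold change -0.60, limma adjusted p = 0.0763). For sage, its partner in the gland, the value was -0.35 (limma adjusted p = 0.149). Of the other markers, eyg had -0.35, and sens, CrebA, PH4alphaSG1 and PH4alphaSG2 had 0.07 to 0.77. The part of gland size or gland share in the levels of the Eig71E genes was not tested.

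Other ecdysone-induced genes included 2 that fell in the mean of both mutants, of 8 tested in a list of 10 Imp, Edg and Eip genes, where 1.7% of all tested rows were called lower. These were ImpE1 (-1.65, limma adjusted p = 0.0448) and ImpE2 (-1.67, limma adjusted p = 0.0455), genes induced by ecdysone in imaginal discs. ImpE2 had 178 and 105 FPKM in HP1b16 and 128 and 119 FPKM in HP1b86, against 488 and 352 FPKM in yw. The median of the 8 was 0.20.

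Because the Eig71Ee protein is also found in the clot, 8 genes of the hemolymph clot and of hemocytes were examined. In the mean of both mutants 1 rose, Tig, the extracellular matrix gene tiggrin (1.51, limma adjusted p = 0.0373), and 0 fell, while 4.68% of all tested rows were called higher. For 7 of the 8 genes, all but the plasmatocyte receptor gene NimC1, all 4 mutant libraries lay above both yw libraries, as they did for 24.4% of tested rows. The summed level of the 8 was 1183 and 1701 FPKM in HP1b16 and 2431 and 854 FPKM in HP1b86, against 484 and 529 FPKM in yw, opposite in direction to Eig71Ee. The largest part of this sum in every library was fon, which did not pass (1.74, limma adjusted p = 0.121). It had 820 and 1151 FPKM in HP1b16 and 1515 and 430 FPKM in HP1b86, against 239 and 293 FPKM in yw.

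Midgut and fat body genes were examined as markers of other tissues. Of 5 midgut genes, 4 rose (4.68% of all tested rows were called higher) in the mean of both mutants, namely lambdaTry (5.02, limma adjusted p = 0.0312), betaTry (3.89, limma adjusted p = 0.0312), LysB (3.88, limma adjusted p = 0.0268) and Mal-A1 (2.88, limma adjusted p = 0.0359). The remaining gene, Jon65Aiv, did not pass (1.74, limma adjusted p = 0.065). The summed level of the 5 was 14210 and 14380 FPKM in HP1b16 and 35870 and 18100 FPKM in HP1b86, against 4111 and 4689 FPKM in yw. Most of this sum was Jon65Aiv alone, with 9128 and 9234 FPKM in HP1b16 and 28250 and 13730 FPKM in HP1b86, against 3800 and 4291 FPKM in yw. Among 6 fat body genes, 5 had a library listed at 0, which can be a failed estimate. Lsp2, the 1 gene of them that passed, was listed at 0 in both HP1b16 libraries and had 16390 and 8705 FPKM in HP1b86, against 7602 and 8239 FPKM in yw. The part of these tissues in the levels of the Eig71E genes was not tested.

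The genes whose levels followed the summed cluster most closely were found by Pearson's r of log2(FPKM + 1) over the 6 libraries, among the 5797 rows whose mean reached 10 FPKM. They were NAT1, a translation initiation factor gene (r = 0.995), the proteasome subunit gene Rpt3 (0.995), CG11509 (0.995), CG32243 (0.993) and CG10005 (0.992). NAT1 had 105 and 86.1 FPKM in HP1b16 and 68.5 and 89.8 FPKM in HP1b86, against 175 and 174 FPKM in yw. Eig71Ee made up 98.6% to 99.8% of the sum, so r with the sum describes Eig71Ee and not the small genes. The libraries are few and share genotypes and depths, and 466 of the rows (8.04%) had r above 0.9. Among the regulators r ran from -0.80 for the row of usp to 0.985 for br, which 0.380% of the rows exceeded. Among the salivary gland markers it ran from -0.65 for PH4alphaSG2 to 0.980 for fkh. For Eig71Eg with Eig71Ee it was 0.872.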

How the data were processed

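RNA-seq of whole larvae was analysed for HP1b16, HP1b86 and yw, with 2 libraries per genotype. The values are FPKM as deposited by the authors, who processed the reads with bcl2fastq 2.18.0.12, Trim Galore 0.4.1, TopHat2 2.1.1 (dm3 build) and Cufflinks 2.2.1 according to the submitters' processing notes. The annotation is not given in the sources used here, nor is it stated whether libraries were scaled further to each other. All 6 columns were used, and 0 columns of values were left out. Of the 16662 rows, 626 hold several overlapping genes and 1604 are at 0 in every library. Cuffdiff, the test of the study, needs aligned reads and was not run.

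The values were transformed to log2(FPKM + 1), which understates the changes of low genes. Rows had to average 1 FPKM or more over the libraries, and the 10986 that did were tested in R 4.3.3 with limma 3.58.1 (moderated variances with a mean-variance trend, 1.59 prior degrees of freedom), with all 6 libraries in 1 fit and a threshold of 0.05 on the Benjamini-Hochberg adjusted p. The procedure was also run on simulated data, the outcome of which is not reported here and lends the results no support. The Eig71E genes, the gene lists and the tests were chosen with earlier results of these data known.

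All 10 Eig71E genes are named. Of each list, the genes past the threshold in the mean of both mutants are named, up to 4 by size, with EcR, br, Eip74EF, Sgs3, Sgs7, fkh and sage always, along with the 5 rows closest in pattern and the neighbours. The midgut genes were taken from the marker list.

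Numbers of fragments, chosen after seeing the data, were derived from the steps between low FPKM values with transcript lengths of the reference annotation. These lengths are of a later release than the dm3 build and may differ from those used for the FPKM. They lay within 0.0558 of whole numbers for Eig71Ed (tolerance 0.15) and are approximate. Alternatives were a pseudocount of 0.1, no filter, a minimum of 5 FPKM, scaling to TPM, median-ratio scaling, quantile normalization, a replicate block, each mutant with yw alone, and leaving out each library.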

Additional observations from a re-analysis of the deposited data

How the results depend on the processing

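The log2 fold changes of Eig71Ee and Eig71Eg against yw were below 0 under every alternative listed, but calls and counts depended on the setting, and the cause was not tested. The replicate numbers share only a number: deviations of same-numbered libraries correlated at -0.115 between HP1b16 and HP1b86, 0.074 between HP1b16 and yw and -0.401 between HP1b86 and yw. With a replicate block, 0 genes passed in each comparison, and Eig71Eg had limma adjusted p of 0.136 in HP1b86 (-3.62) and 0.108 with both mutants averaged (-2.61). Unadjusted p from limma under 0.05 were then found for 1839 genes in HP1b16, 2382 in HP1b86 and 2508 with both mutants averaged.

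With each mutant and yw alone, 2382 genes passed in HP1b16, among them 2 Eig71E genes (Eig71Ee -0.99, limma adjusted p = 0.0208, and Eig71Eg -1.59, 0.0489), and 0 in HP1b86 (Eig71Eg -3.62, 0.116). With all libraries in 1 fit, the counts were 2 genes in HP1b16, 443 in HP1b86, 701 in the mean of both mutants and 1 between the alleles. In HP1b16 they became 35 with a pseudocount of 0.1, 1 without a filter, 117 with a minimum of 5 FPKM, 292 with TPM and 442 with quantile normalization. In HP1b86 they became 203 without a filter, 2071 with TPM, 1 with median-ratio scaling and 828 with quantile normalization, and with both mutants averaged 461 without a filter, 1214 with TPM and 1246 with quantile normalization. Between the alleles they were 4 with a pseudocount of 0.1, 2 with median-ratio scaling and 3 with quantile normalization.

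In HP1b86, Eig71Ee passed along with Eig71Eg, 2 genes in all, with a minimum of 5 FPKM (-1.36, limma adjusted p = 0.0429), TPM (-1.96) and quantile normalization (-2.14), while with median-ratio scaling 0 passed (Eig71Eg -3.58, 0.0501). In the mean of both mutants 2 passed with a pseudocount of 0.1 (Eig71Ee -1.18), a minimum of 5 FPKM (-1.17), TPM (-1.59) and quantile normalization (-1.77). TPM moved the median of all tested rows to -0.32 in HP1b16, -0.53 in HP1b86 and -0.45 with both mutants averaged, and the fold changes are to be read against it. The share of calls that were higher was 73.8% in HP1b86 and 73.3% with both averaged, against 22.7% and 46% with TPM and 48.8% and 52.3% with quantile normalization, and the 1 call with median-ratio scaling in HP1b86 was lower. In HP1b16 it was 50% of 2 calls, against 83.2% with TPM and 70.8% with quantile normalization.

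With each library left out in turn, 0 to 2381 genes passed in HP1b16, 0 to 4680 in HP1b86, 0 to 5052 with both averaged and 0 to 2013 between the alleles, with 0 to 2 Eig71E genes against yw and 0 to 1 between the alleles. Against yw, the counts of 0 came from leaving out a yw or an HP1b16 library, and the highest counts from leaving out an HP1b86 library. Eig71Ee ranged from -1.07 to -0.92 in HP1b16, -1.62 to -1.09 in HP1b86 and -1.31 to -1.04 with both averaged. Eig71Eg ranged from -2.15 to -1.04, -4.18 to -3.06 and -3.16 to -2.05 in the same order, and from 1.86 to 2.19 between the alleles. With 2 libraries per genotype and about 11 fragments in each HP1b86 library, Eig71Eg is measured with low precision, and 8 Eig71E genes are too low to test.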
